A study of Mus musculus with 9 samples.

Results

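Genes of the centrosome and of transport inside the cilium were followed in the olfactory bulb, the first relay of smell in the brain, from mid-gestation to birth in the mouse. Genes were taken by symbol: Cep followed by a digit, or Tubg, for the centrosome, and Ift or Bbs followed by a digit for the cilium. Of 66 such symbols, 61 had a probe set with a log2 level of 5 or more on at least 2 of 9 arrays, and these are 61 of the 10864 genes tested in all. They comprise 39 centrosome genes (32 Cep and 7 Tubg genes) and 22 cilium genes (14 Ift and 8 Bbs genes). Of the 61, 60 are protein coding and 1, Cep83os, is a long noncoding RNA that the symbol rule took in with its neighbour Cep83. Of the 61, 57 read 5 or more on all 9 arrays, and the other 4 are Bbs9 on 8, Bbs10 on 6, Cep83os on 5 and Tubg2 on 3. The 5 symbols that did not pass were Cep126, whose highest log2 level was 5.26 on the E11 array, Cep72 (4.77), Cep135 (3.66), Cep250 (2.73) and Cep295nl (2.62).

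The bulbs came from CD1 mice, an outbred strain, with no mutation or treatment named. Animals were taken on each embryonic day from E11 to E18 and on the day of birth (P0), and each age is 1 array made from 1 animal, with the RNA amplified in 2 rounds. No age had a replicate, so the error of a trend is the scatter of 9 animals around it, and precision is limited by the small number of arrays. Each gene was fitted against age with limma, a slope is a change in log2 level per day, and "fell" and "rose" mean that the slope passed an adjusted p of 0.05 (Benjamini-Hochberg over the 10864 genes).

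The centrosome is the main microtubule-organising centre of an animal cell. It holds a pair of centrioles that are copied once in each cell cycle, and the copies form the poles of the mitotic spindle. Microtubules are nucleated there by ring complexes of gamma-tubulin and the Tubgcp proteins. In a cell that has left mitosis or is between divisions, the older centriole can dock at the membrane as a basal body and grow a primary cilium, an antenna through which cells of the developing forebrain receive Hedgehog signals. Intraflagellar transport (IFT) trains build the cilium and carry cargo along it, with the IFT-B complex linked mainly to outward and IFT-A to return movement. The BBSome, an assembly of Bardet-Biedl syndrome proteins put together with the help of chaperonin-like BBS proteins, moves membrane receptors out of the cilium.

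The bulb changed in its cell types over the same days. Over all genes tested 21.9% fell and 25.2% rose. All 25 genes tested of a list of cycling cell markers fell, with a median log2 level of 8.23 at P0 and 11.40 at E11. Tyms, 1 of the 25, read 5 or more from E11 to E14 alone, the arrays through which it passed the filter. Of 15 neuronal genes 11 rose, of 14 genes of bulb neurons 10 rose and 1, Tbr1, fell, and of 11 glial genes 10 rose. Meningeal and mesenchymal genes had a median level of 11.08 at P0 and 7.16 at E11 (9 of 10 rose), microglial genes rose in 6 of 7 cases, and red cell genes had a median of 3.02 at P0 and 13.19 at E11 (4 of 5 fell). Of 10 surface and respiratory epithelium genes on the array 2 passed the filter. Epcam, 1 of them, read 6.60 at E11, 6.33 at E12 and at most 4.34 later. It passed the filter through the E11 and E12 arrays alone, so its slope (-0.30 ± 0.11) is given as a description. Xist, made from the inactive X of females, was high on the arrays of E11, E12, E15 and P0 (13.42 to 13.98) and at most 2.76 on the other 5. The 3' minus 5' difference of the actin control probe sets lay between 1.48 and 1.90 log2 units. That of the Gapdh control was lowest at E11 (1.55) and between 1.67 and 2.12 on the other arrays, with 2.07 at E17 and 2.04 at E18. The median of an array lay between 4.08 and 4.23. The part of these shifts in the results that follow was not tested. In bulk tissue, fewer cells of a type and less RNA per cell cannot be told apart.

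The genes measured were for the most part higher early in the course than late. Of the 61 genes, 30 fell, or 49.2%, beside 21.9% of all genes tested, and 5 rose, or 8.20%, beside 25.2% of all genes tested. The other 26 did not pass the test, so that 35 of 61 were called in either direction, beside 47.2% of all genes tested. Among the 57 genes read at 5 or more on all arrays, 30 fell and 3 rose, which leaves out Tubg2 and Cep83os. Of the 39 centrosome genes 22 fell and 3 rose, and of the 22 cilium genes 8 fell and 2 rose. The median slope was -0.084 log2 units per day in centrosome genes, -0.067 in cilium genes and 0.0020 over all genes tested. Over the whole course the fitted change had a median of -0.67 in centrosome genes, -0.54 in cilium genes and 0.016 over all genes. Genes that fell with a fitted decrease of at least 2-fold were 13 of 39 centrosome and 3 of 22 cilium genes, beside 1240 of all 10864 genes tested. Genes that rose with a fitted increase of at least 2-fold were 3 centrosome genes and 1 cilium gene, beside 2077 of the 10864.

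**Figure D1:**
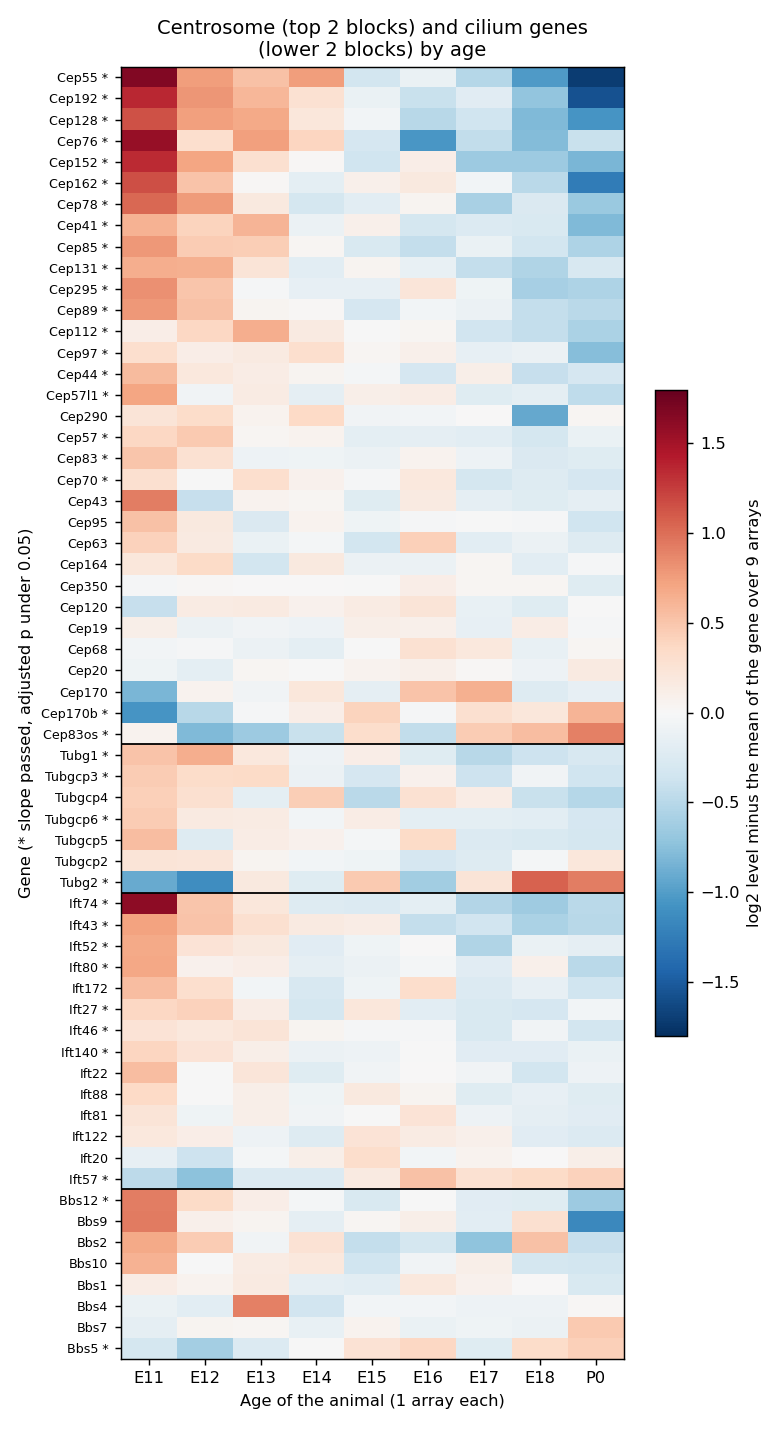
Log2 level of each of the 61 genes on each array, minus the mean of the gene over the 9 arrays, with ages from E11 to P0 along the horizontal axis and genes ordered by slope within the Cep, Tubg, Ift and Bbs blocks from top to bottom. An asterisk marks the 35 genes whose slope passed the test. Most rows are red, above their mean, at E11 and blue, below it, at P0, and the 5 genes that rose stand at the foot of their blocks and are above their mean at P0.

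**Figure D2:**
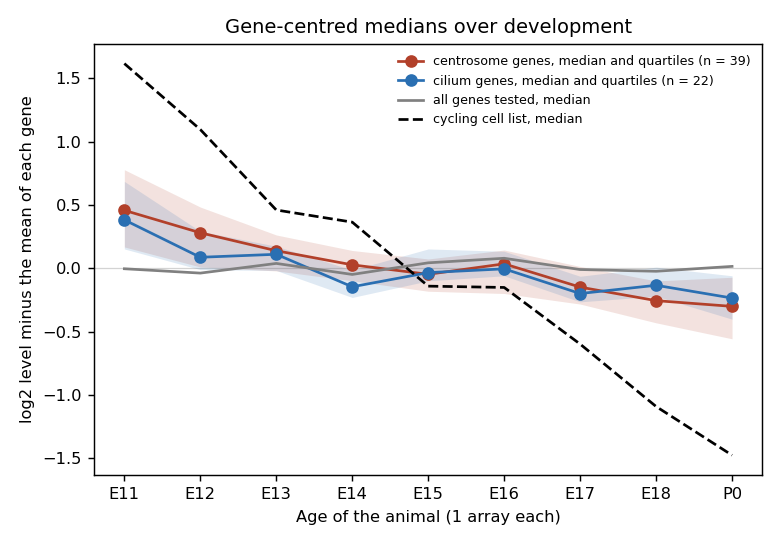
Median over 39 centrosome and 22 cilium genes of the log2 level minus the mean of each gene, by age (1 array each), with the quartiles of the genes shaded, beside the median of all genes tested and of the list of cycling cell markers. Centrosome genes stand at -0.30 at P0 and 0.46 at E11, cilium genes at -0.24 at P0 and 0.38 at E11, and the cycling cell list at -1.48 at P0 and 1.62 at E11.

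The gene-centred medians, which set each gene against its own mean, were followed day by day. In centrosome genes the median was 0.46 at E11, 0.28 at E12, 0.14 at E13, 0.027 at E14, -0.048 at E15, 0.035 at E16, -0.15 at E17, -0.26 at E18 and -0.30 at P0. In cilium genes it was 0.38 at E11, 0.087 at E12, 0.11 at E13, -0.15 at E14, -0.034 at E15, -0.0046 at E16, -0.20 at E17, -0.13 at E18 and -0.24 at P0. In both classes more of the decrease lay between E11 and E14 than after E14. The difference between the classes at any 1 age was at most 0.19 log2 units, at E12. The classes share their arrays, and the difference between them was not tested.

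The 4 Cep genes with the steepest slopes were Cep55, Cep192, Cep128 and Cep76. Cep55, which recruits the machinery that cuts the last bridge between daughter cells, read 11.63, 10.71, 10.48, 10.72, 9.63, 9.85, 9.45, 8.94 and 8.25 from E11 to P0. Its level was highest on the E11 array and lowest on the P0 array, 10.3-fold lower at P0 than at E11, with a slope of -0.36 ± 0.036 (SE, limma, adjusted p = 4.48e-05). Cep192, a scaffold that recruits pericentriolar material and the kinase Plk4, read 9.14, 8.58, 8.38, 8.06, 7.67, 7.38, 7.58, 7.08 and 6.22. Apart from a small upturn at E17 each array was below that of the day before, the slope was -0.31 ± 0.031 (limma, adjusted p = 5.00e-05), and the level at P0 was 7.57-fold lower than at E11. Cep128, a component of the subdistal appendages of the older centriole, read 7.81, 7.39, 7.34, 6.85, 6.61, 6.16, 6.29, 5.86 and 5.60. It had the same order of ages as Cep192, with a slope of -0.27 ± 0.025 (limma, adjusted p = 3.5e-05) and a 4.63-fold lower level at P0. Cep76, which restrains repeated copying of centrioles, read 8.33, 7.06, 7.50, 7.14, 6.45, 5.71, 6.31, 5.97 and 6.35. Here the E11 array stood above every other and the lowest was E16, and the slope was -0.25 ± 0.056 (limma, adjusted p = 0.00478).

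Of the 10 Cep genes grouped by a role in centriole duplication or growth, 7 fell (70%, beside 21.9% of all genes tested) and 0 rose. Besides Cep192 and Cep76 these were Cep152, the scaffold that works with Cep192 to position Plk4, Cep295, needed for the conversion of new centrioles into centrosomes, Cep44, Cep57 and Cep85. Cep152 read 5.45 at P0 and 7.62 at E11, with a slope of -0.24 ± 0.037 (limma, adjusted p = 0.000551). Slopes of the other 4 lay between -0.15 for Cep85 and -0.083 for Cep57. Without the E11 array the calls of Cep44 (limma, adjusted p = 0.0671) and Cep57 (0.0517) were lost. Over E13 to P0 alone those of Cep76, Cep85, Cep295, Cep44 and Cep57 were lost. Cep63, the partner of Cep152, had a slope of -0.051 ± 0.033 and Cep20 of 0.021 ± 0.016, and neither passed the test. Cep43, also known as Fop, read 10.76 at E11 and between 9.41 and 9.99 on the other 8 arrays, and its slope of -0.068 ± 0.042 did not pass (limma, adjusted p = 0.206).

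The promoter windows of Cep55 and Cep152 are shown because both genes fell steeply and carry letters found in promoters of cell cycle genes, and that of Cep83 because it overlaps the start of a noncoding RNA with the opposite slope. Sequences are from RefSeq (GRCm38.p6), run from 250 bases before to 50 bases after the start of the gene, and are written on the strand of the gene. Capitals mark 3 kinds of motif, each searched on both strands. The cell cycle homology region (CHR) was searched as TTTGAA and as the variant TTCGAA, the CCAAT box by its 5 letters, and the E2F site as TTCCCGC, with the related forms TTCGCGC and, as a further variant, TTGGCGC. The Cep55 window is chr19:38054791-38055090 on the plus strand, the second of its 2 windows, and holds a CHR at position -33. The Cep152 window is chr2:125625064-125625363 on the minus strand and holds a CHR, an E2F site and 3 CCAAT boxes. The Cep83 window is chr10:94688540-94688839 on the plus strand, holds none of these letters, and shares 276 of its 300 bases with the Cep83os window on the minus strand.
Cep55: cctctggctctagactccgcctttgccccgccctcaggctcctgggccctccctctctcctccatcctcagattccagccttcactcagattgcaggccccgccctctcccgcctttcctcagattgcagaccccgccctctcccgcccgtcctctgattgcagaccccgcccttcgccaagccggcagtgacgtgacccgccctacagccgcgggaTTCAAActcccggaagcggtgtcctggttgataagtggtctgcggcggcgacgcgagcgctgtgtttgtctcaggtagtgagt
Cep152: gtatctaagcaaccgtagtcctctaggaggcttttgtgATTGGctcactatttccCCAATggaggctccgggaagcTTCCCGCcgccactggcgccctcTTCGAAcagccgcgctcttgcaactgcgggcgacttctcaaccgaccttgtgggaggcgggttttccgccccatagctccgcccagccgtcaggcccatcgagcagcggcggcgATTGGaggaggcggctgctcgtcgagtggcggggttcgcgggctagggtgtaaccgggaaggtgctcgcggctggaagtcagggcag
Cep83: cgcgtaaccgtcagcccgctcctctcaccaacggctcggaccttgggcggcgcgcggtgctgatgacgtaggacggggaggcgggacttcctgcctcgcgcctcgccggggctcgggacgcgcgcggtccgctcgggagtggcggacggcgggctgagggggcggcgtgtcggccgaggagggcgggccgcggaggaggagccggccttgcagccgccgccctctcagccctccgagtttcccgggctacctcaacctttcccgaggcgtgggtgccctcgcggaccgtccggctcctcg

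Of 11 Cep genes with a role in building or capping the cilium, 7 fell (63.6%, beside 21.9% of all genes tested) and 0 rose. Cep162, which ties the transition zone of the cilium to the centriole, read 6.31 at P0 and 8.72 at E11, 5.34-fold lower at P0, with a slope of -0.21 ± 0.042 (limma, adjusted p = 0.00283). Cep78, Cep41, Cep131, Cep89, Cep97 and Cep83 fell with slopes between -0.18 for Cep78 and -0.073 for Cep83. Cep89 and Cep83 belong to the distal appendages that dock the basal body at the membrane, Cep41 takes part in the glutamylation of ciliary tubulin, and Cep97 acts with Ccp110 as a cap that holds back cilium growth. Cep164, another distal appendage protein, read between 7.18 and 7.85 with no slope that passed (-0.034 ± 0.028), as did Cep19 (0.0043 ± 0.018) and Cep120 (0.0012 ± 0.029). Cep290, a transition zone protein, read 6.25 at E18 and between 7.10 and 7.53 on all other arrays, and its slope of -0.084 ± 0.040 did not pass. A second probe set of Cep83 had a slope of 0.046, against -0.073 for the one used, and the probe set used lost its call without the E11 array. Over E13 to P0 alone the calls of Cep162, Cep78, Cep131, Cep89 and Cep83 were lost, and that of Cep97 was lost without the P0 array.

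Of 4 Cep genes grouped under the linker between centrioles and the centre of the centrosome, 1 fell (25%, near the 21.9% of all genes tested). This was Cep70, with a slope of -0.069 ± 0.023 (limma, adjusted p = 0.0302), and Cep68, Cep350 and Cep170 did not pass. The call of Cep70 was lost by rank correlation and without the E11, E13, E17, E18 or P0 array. Cep170 is a subdistal appendage protein, as is Cep128, which was grouped with the other Cep genes. Cep170 read 10.60 at E11 and between 11.19 and 12.06 on the other arrays. Its paralog Cep170b read 8.39, 8.96, 9.43, 9.57, 9.85, 9.43, 9.74, 9.65 and 10.07 from E11 to P0. Cep170b rose, with a slope of 0.15 ± 0.035 (limma, adjusted p = 0.005), and the larger part of its climb came up to E15. Of the other Cep genes, Cep112 and Cep57l1 fell, Cep95 did not pass, and Cep83os rose, with a slope of 0.16 ± 0.054 (limma, adjusted p = 0.0337). The call of Cep57l1 was lost with no filter, with the Xist level as a covariate and over E13 to P0 alone. It was also lost without the E11 (limma, adjusted p = 0.208), E13, E17, E18 or P0 array. Cep83os read 5.94 at P0 and 5.10 at E11, with levels under 5 at E12, E13, E14 and E16, and its call was lost without the E12, E13, E17, E18 or P0 array (limma, adjusted p between 0.0606 and 0.143).

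**Figure D3:**
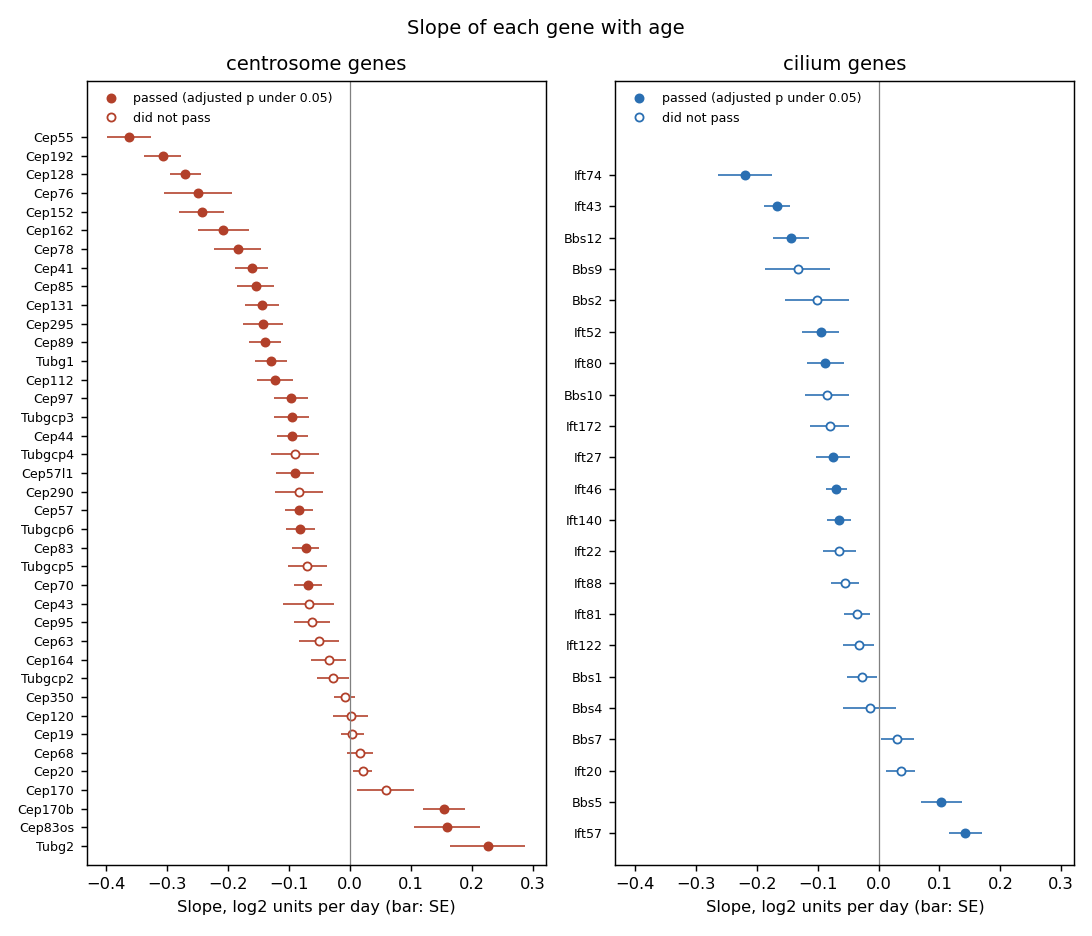
Slope of each gene with age in log2 units per day, with its standard error as a bar, for 39 centrosome genes on the left and 22 cilium genes on the right, ordered by slope. Filled points passed the test and open points did not. The lowest centrosome slope is -0.36 (Cep55) and the lowest cilium slope is -0.22 (Ift74). Tubg2 has the highest slope in the left panel (0.23) and Ift57 in the right (0.14).

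The gamma-tubulin genes Tubg1 and Tubg2 encode near-identical proteins. Tubg1, the widely expressed form, read 9.58, 9.72, 9.25, 8.98, 9.19, 8.85, 8.57, 8.70 and 8.78 from E11 to P0. It fell, with a slope of -0.13 ± 0.026 (limma, adjusted p = 0.00256), and its 3 lowest levels were those of E17, E18 and P0. Tubg2, known in the mouse for its expression in brain, read 3.71, 3.49, 4.79, 4.39, 5.07, 3.99, 4.84, 5.68 and 5.53. It read 5 or more at E15, E18 and P0 alone, the late arrays through which it passed the filter. Its fitted slope was 0.23 ± 0.061 (limma, adjusted p = 0.0121), with 6 of the 9 levels under 5. Against a level of 5 at E11, the P0 level was at least 1.45-fold higher. With levels under 5 set to 5 the slope of Tubg2 was 0.069 and did not pass (limma, adjusted p = 0.0602). As a description, the difference Tubg1 minus Tubg2 had a slope of -0.36 log2 units per day. It was -0.20 with levels under 5 set to 5 in both, a setting chosen after seeing the data, and -0.26 over E13 to P0 alone. Whether either probe set also bound the other transcript was not tested.

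Of the 5 Tubgcp genes, which encode the proteins that arrange gamma-tubulin into a ring, 2 fell and 0 rose. Over all genes tested 21.9% fell and 25.2% rose. Tubgcp3, a core subunit, read 7.71, 7.58, 7.59, 7.15, 6.95, 7.33, 6.88, 7.18 and 6.89, with a slope of -0.095 ± 0.028 (limma, adjusted p = 0.0189). Tubgcp6 read 7.16, 6.86, 6.85, 6.66, 6.83, 6.52, 6.53, 6.51 and 6.40, with a slope of -0.081 ± 0.024 (limma, adjusted p = 0.0167). Both were highest at E11, and both lost their call without the E11 array. Tubgcp4, Tubgcp5 and Tubgcp2 had slopes of -0.090, -0.070 and -0.028 that did not pass. Further probe sets of Tubgcp4 had steeper slopes, of -0.13 and -0.24. With the mean of its probe sets Tubgcp4 had a slope of -0.15 that passed (limma, adjusted p = 0.00115).

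Among the 14 Ift genes 7 fell (50%, beside 21.9% of all genes tested) and 1 rose (7.14%, beside 25.2%). Ift74, an IFT-B core subunit that binds tubulin together with Ift81, read 10.09, 8.98, 8.69, 8.25, 8.24, 8.32, 7.96, 7.85 and 7.99 from E11 to P0. Its level was 4.28-fold lower at P0 than at E11, with a slope of -0.22 ± 0.044 (limma, adjusted p = 0.00264), and from E14 on it stayed between 7.85 and 8.32. Ift43, an IFT-A subunit, read 9.68, 9.48, 9.26, 9.13, 9.09, 8.54, 8.62, 8.39 and 8.46. Its decrease was spread over the days, with a slope of -0.17 ± 0.021 (limma, adjusted p = 0.000205) and a 2.32-fold lower level at P0. Ift52, another IFT-B core subunit, read 8.85, 8.41, 8.34, 7.96, 8.08, 8.17, 7.62, 8.05 and 8.0. The slope of Ift52 was -0.095 ± 0.031 (limma, adjusted p = 0.0278), and the E11 array was again the highest. Ift80, Ift27, Ift46 and Ift140 fell with slopes between -0.087 for Ift80 and -0.065 for Ift140. Without the E11 array the calls of Ift52 (limma, adjusted p = 0.163), Ift80 (0.226), Ift27 (0.148) and Ift140 (0.112) were lost, and each of these 4 was lost under further settings.

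Ift57, an IFT-B subunit that also bears the name Hippi, was the 1 Ift gene that rose. It read 9.84, 9.56, 10.06, 10.06, 10.46, 10.83, 10.57, 10.64 and 10.71 from E11 to P0. The 5 arrays from E15 on were all above the 4 before them, the level at P0 was 1.83-fold higher than at E11, and the slope was 0.14 ± 0.027 (limma, adjusted p = 0.00191). By complex, 2 of 3 IFT-A genes fell (Ift43 and Ift140, with Ift122 at -0.033 ± 0.026). Of 11 IFT-B genes 5 fell (45.5%, beside 21.9% of all genes tested) and 1 rose (9.09%, beside 25.2%). The IFT-B genes that did not pass were Ift172, Ift22, Ift88, Ift81 and Ift20. Ift88, the subunit whose loss is widely used to abolish cilia in mice, read between 7.40 and 7.98, with a slope of -0.055 ± 0.023 (limma, adjusted p = 0.0768).

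Of the 8 Bbs genes 1 fell and 1 rose, 12.5% each, beside 21.9% and 25.2% of all genes tested. The fall of the whole set was thus not seen in the count of Bbs calls, but 6 of the 8 slopes were negative. The median fitted change of the Bbs genes over the course was -0.45 log2 units, beside 0.016 over all genes. Bbs12, of the chaperonin-like group, read 8.37, 7.79, 7.55, 7.40, 7.16, 7.44, 7.24, 7.22 and 6.79 from E11 to P0. It fell, with a slope of -0.14 ± 0.030 (limma, adjusted p = 0.00331) and a 2.98-fold lower level at P0 than at E11. Bbs5, a lipid-binding BBSome subunit, read 6.54, 6.23, 6.61, 6.84, 7.11, 7.22, 6.63, 7.17 and 7.27. Its slope was 0.10 ± 0.034 (limma, adjusted p = 0.0281), with the E17 array low among the later ages, and it was 1.66-fold higher at P0. The call of Bbs5 was lost with no filter, with median centring, and without the E11, E12, E18 or P0 array (limma, adjusted p between 0.0517 and 0.084), and over E13 to P0 alone (0.25). Of the 6 BBSome subunits with a Bbs symbol 0 fell, and Bbs1, Bbs2, Bbs4, Bbs7 and Bbs9 did not pass. BBSome genes under other symbols are given below. Bbs4 read 9.33 at E13 and between 8.07 and 8.44 on all other arrays, and 2 other probe sets of Bbs4 were likewise highest at E13. Bbs10, the other chaperonin-like gene tested, had a slope of -0.085 ± 0.037 that did not pass. It passed under quantile normalization (limma, adjusted p = 0.0374) and with the mean of its probe sets (0.00647). The second probe set of Bbs10 had a slope of -0.18 but read 5 or more at E11, E12 and E13 alone, the arrays through which it passed the filter.

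**Figure D4:**
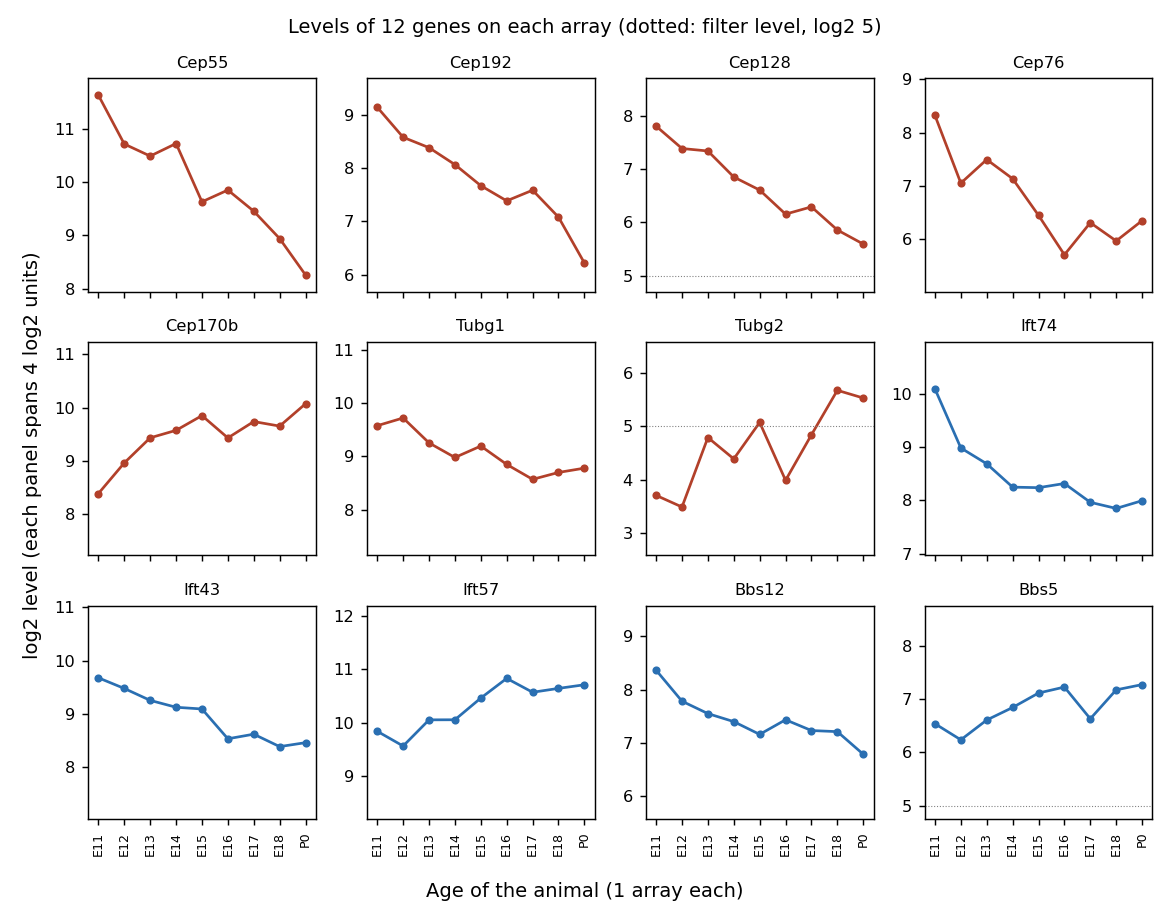
Log2 level on each of the 9 arrays for 7 centrosome genes (red) and 5 cilium genes (blue), with age along the horizontal axis, every panel spanning 4 log2 units, and the level of 5 used as a filter dotted where it lies in the panel. Cep55, Cep192 and Cep128 come down over the whole course and Ift74 mostly before E14, while Cep170b, Ift57 and Bbs5 are higher at P0 than at E11, as is Tubg2, which lies mostly under the dotted line.

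The promoter windows of Ift57, Bbs7 and Cep19 are shown because they were the 3 members, of 52 with a window, that hold a full X-box, the motif bound by the RFX factors that control many cilium genes. The X-box was searched on both strands in its full form, a pair of half-sites in opposite orientation, and is in capitals together with CHR, CCAAT and E2F letters. The Ift57 window is chr16:49699044-49699343 on the plus strand with the X-box at position -60. The Bbs7 window is chr3:36613340-36613639 on the minus strand with the X-box at position -121. The Cep19 window is chr16:32099539-32099838 on the plus strand with the X-box at position 23, after the start. Of these 3 genes Ift57 rose, and the slopes of Bbs7 (0.031 ± 0.027) and Cep19 did not pass. Over all genes tested 21.9% fell and 25.2% rose, and a link between the X-box and the slope was not tested.
Ift57: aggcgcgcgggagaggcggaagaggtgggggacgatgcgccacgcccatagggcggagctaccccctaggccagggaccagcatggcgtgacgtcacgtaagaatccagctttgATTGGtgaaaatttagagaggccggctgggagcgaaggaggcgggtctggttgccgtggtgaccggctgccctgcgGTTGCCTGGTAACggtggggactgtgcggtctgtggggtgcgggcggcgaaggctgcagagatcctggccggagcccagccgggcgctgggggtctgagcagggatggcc
Bbs7: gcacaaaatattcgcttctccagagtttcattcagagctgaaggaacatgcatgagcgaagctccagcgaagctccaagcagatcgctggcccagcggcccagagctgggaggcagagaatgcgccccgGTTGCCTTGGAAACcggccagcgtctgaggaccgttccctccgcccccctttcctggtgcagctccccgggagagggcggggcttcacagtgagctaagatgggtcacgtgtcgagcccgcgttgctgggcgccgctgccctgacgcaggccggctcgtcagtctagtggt
Cep19: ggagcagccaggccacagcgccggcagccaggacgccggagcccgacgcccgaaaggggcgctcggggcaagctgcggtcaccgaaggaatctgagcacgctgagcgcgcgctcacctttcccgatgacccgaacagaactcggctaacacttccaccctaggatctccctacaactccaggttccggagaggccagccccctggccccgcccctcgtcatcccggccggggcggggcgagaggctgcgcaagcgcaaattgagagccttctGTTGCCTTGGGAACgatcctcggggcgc

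Across the 52 genes with a window, motifs were counted by class. A CHR was present in the windows of 9 of 33 centrosome genes and 0 of 19 cilium genes, and in 16.1% of all 8833 tested genes with a window. An E2F site was present in 11 of 33 centrosome genes and 2 of 19 cilium genes, against 17.4% of the tested genes. Among the 19 centrosome genes that fell, 7 had a CHR and 9 an E2F site. A CCAAT box was present in 14 of 33 centrosome genes, 11 of 19 cilium genes and 43.3% of the tested genes. The full X-box was present in 1 of 33 centrosome genes, 2 of 19 cilium genes and 0.906% of the tested genes. Its half-site GTTGCC, alone or within a full X-box, was present in 8 of 33 centrosome genes, 8 of 19 cilium genes and 15.0% of the tested genes. Among the 7 cilium genes that fell and had a window, 2 held the half-site, Ift140 and Ift27. Over all 32851 windows of 300 bases in the RefSeq table, a CHR was present in 19.2%, an E2F site in 8.07%, a CCAAT box in 37.4% and an X-box in 0.718%. These matches describe letters in a window, and no list was tested for them.

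The levels of E11 and E12 were compared across both classes. Of the 61 genes, 49 were lower at E12 than at E11 (80.3%), beside 54.8% of all genes tested, and 35 had their highest level on the E11 array (57.4%), beside 27.5% of all genes tested. The E12 minus E11 difference had a median of -0.22 log2 units in centrosome genes, -0.26 in cilium genes and -0.053 over all genes. From E12 to P0 the median change was -0.50 in centrosome genes, -0.36 in cilium genes and 0.047 over all genes. Single genes differed in which of these stretches held their decrease. For Cep43 the E12 minus E11 difference was -1.35 and the P0 minus E12 difference 0.26 log2 units. For Cep55 the same differences were -0.92 and -2.46. The step rests on the single E11 array, and the part in it of the red cell and Epcam levels and the Gapdh control difference of that array was not tested. Without that array 15 of 39 centrosome and 4 of 22 cilium genes fell, beside 16.6% of all genes tested. In that setting 3 centrosome genes and 1 cilium gene rose, beside 20.4% of all genes tested. Over E13 to P0 alone 8 of 39 centrosome and 2 of 22 cilium genes fell, beside 11.2% of all genes tested. There 1 of each class rose, beside 14% of all genes tested. In both settings the share that fell was close to that of all genes in the cilium class and above it in the centrosome class.

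**Figure D5:**
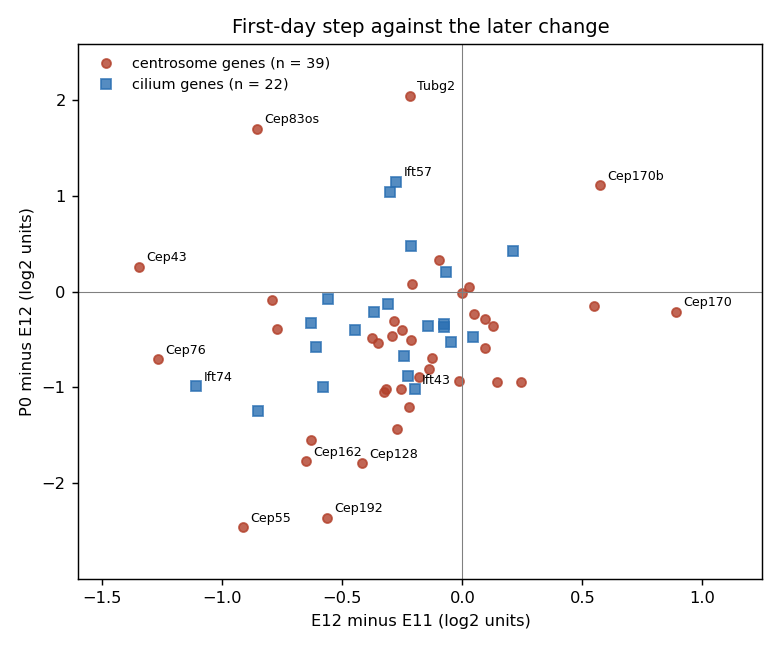
Difference P0 minus E12 (vertical axis) against E12 minus E11 (horizontal axis), in log2 units, for each of 39 centrosome genes (circles) and 22 cilium genes (squares), without error bars since each age is 1 array. Most points lie in the lower left, with Cep55 and Cep192 lowest. Cep43 and Cep76 stand farthest to the left, and Tubg2, Cep83os and Ift57 are high at the top left.

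No gene of the 61 had a called turning point, where 6.22% of all genes tested had a called quadratic term with its turn inside the course. The lowest adjusted p of the quadratic term among the 61 was 0.0511, for Ift74 (limma). The turning point of Ift74 was called, between days 17.0 and 17.8, under quantile normalization (limma, adjusted p = 0.0318) and with P0 placed at day 20 (0.0414). It was also called without the E12 (0.0385) or the E16 array (0.0438), but not without the E11 array. The levels of Ift74 came down to E14 and stayed between 7.85 and 8.32 from then on, without a clear rise after the turn.

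Other genes of the same structures, outside the symbol rule, were taken from lists of known function. Of 17 centriole duplication genes 13 fell (76.5%, beside 21.9% of all genes tested) and 0 rose (beside 25.2%). Their median change was -1.48 log2 units over the course. The steepest were Stil (slope -0.44 ± 0.028), a centriole assembly protein, and Mdm1 (-0.41 ± 0.044), and Plk4, the kinase that starts centriole copying, had -0.33 ± 0.022. Of 36 pericentriolar and spindle pole genes 24 fell (66.7%) and 1 rose (2.78%), with a median of -1.20. Here the mitotic kinases Plk1 and Aurka had slopes of -0.46 ± 0.027 and -0.46 ± 0.024, and Nin, which anchors microtubules at the older centriole, rose (0.21 ± 0.034). Crocc, 1 of the 24 that fell, read 5 or more at E11, E12 and E13 alone, the arrays through which it passed the filter. The transition zone and ciliary membrane list had 11 of 29 genes that fell (37.9%) and 1, Ahi1, that rose (0.14 ± 0.029), with a median of -0.56. The steepest decreases were those of 2700049A03Rik (-0.20 ± 0.023) and Tmem216 (-0.17 ± 0.035).

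The list of the other IFT genes and cilium motors had 5 of 20 that fell (25%, beside 21.9% of all genes tested), 4 that rose (20%, beside 25.2%) and a median change of -0.011 log2 units, all close to the values over all genes. Ttc26, an IFT-B subunit, and Dync2h1, the heavy chain of the return motor, fell (slopes -0.18 ± 0.029 and -0.13 ± 0.029). Ttc30b, an IFT-B subunit, and Kifap3, of the outward kinesin motor, rose (0.29 ± 0.056 and 0.16 ± 0.030). Of 8 further BBSome genes and partners 3 fell and 2 rose. Those that fell were Lztfl1 (-0.090 ± 0.022), Rab3ip (-0.088 ± 0.030) and Ttc8 (-0.073 ± 0.027). Trim32 (0.097 ± 0.035) and Bbip1 (0.054 ± 0.017) rose. Over all genes tested the median change was 0.016.

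Genes of motile cilia were for the most part not detected. Of 41 on the array 7 passed the filter, of which 4 fell (57.1%, beside 21.9% of all genes tested) and 0 rose (beside 25.2%). Mns1 (-0.28 ± 0.063) and Ccdc40 (-0.27 ± 0.044) were the steepest. Ccdc40 read 5 or more at E11, E12 and E13 alone, the early arrays through which it passed the filter. Its slope is thus given as a description, and the 57.1% above, which includes Ccdc40, is no test of the list. Mns1 read under 5 at E16, E17 and E18. Foxj1, the master regulator of motile cilia, read at most 2.60 on any array, and Ccno and Deup1, which act in the mass production of centrioles in multiciliated cells, at most 2.07 and 2.55. Of 6 genes tested of a list for olfactory sensory neurons 4 rose and 1 fell, but Omp and Cnga2, which mark the ciliated sensory neurons of the nose, read at most 2.24 and 2.27.

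Other probe sets on the array gave a check on the one used for each gene. For 20 of the 61 genes, 25 further probe sets passed the filter, and 20 of these had a slope of the same sign. Those of opposite sign belonged to Cep83, Bbs4 (2 probe sets), Cep68 and Cep95, of which Cep83 was the 1 gene with a call. Of the 35 calls, 9 passed in every alternative in which the gene was tested, namely those of Cep41, Cep55, Cep112, Cep128, Cep152, Cep192, Ift43, Ift57 and Ift74.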

How the data were processed

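Olfactory bulb RNA of 9 CD1 mice, 1 per age, was measured on 9 Affymetrix mouse arrays. The authors deposited GCRMA values, per the submitters' processing notes, here taken as log2 levels from that method and from the range they span. No version of the tool is given in the sources used here. The method corrects for background with the sequence of each probe and makes arrays comparable by normalisation. Of 45101 probe sets, the annotation of the platform gave exactly 1 gene for 34958. Those at log2 5 or more on at least 2 arrays were kept, and the probe set of highest mean stood for a gene, which left 10864 genes.

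Each gene was fitted against age (days 11 to 18, P0 as day 19) with limma 3.58.1 in R 4.3.3, with moderated variance and a trend on the mean level, a two-sided test of the slope, and Benjamini-Hochberg adjustment over all 10864 genes at 0.05. A turning point was a called quadratic term with its turn at least 1 day inside the course. Scatter around the line had a median SD of 0.24 log2 units. Folds compare P0 with E11. The fits were tested on simulated data. Promoters from RefSeq (GRCm38.p6) were found for 52 of the 61 genes.

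The genes and the gene lists were chosen with earlier results of these data known. Values on every array were given for the 4 steepest called genes of each class, both gamma-tubulin genes and any called turning point, and list genes by the 2 steepest called each way. Cep170b, Cep43, Cep170, Cep290, Cep83os, Bbs4, Ift88, Plk4 and the markers of motile cilia and sensory neurons were described after their values were seen. Alternatives were the filter, the scaling, the age given to P0, a floor at 5, the choice of probe sets, the Xist level as a covariate, the variance model, a rank test, leaving out each array, and E13 to P0 alone.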

Additional observations from a re-analysis of the deposited data

How the results depend on the processing

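No paired analysis was possible because each age was 1 animal. Over the alternatives no called slope changed sign, 9 of 35 calls passed in each setting in which the gene was tested, and 11 of 26 other genes gained a call in at least 1. Leaving out each array gave between 15 and 23 centrosome genes that fell (22 in all arrays, 15 without E11) and between 4 and 9 cilium genes (8 in all arrays, 4 without E11, 5 without E12 and 5 without E17). The cilium genes that rose were 1 without E11, E12, E18 or P0, with no filter, with median centring and without probe sets whose names end in x, s or a, against 2. Over E13 to P0 alone, 8 of 39 centrosome genes fell and 1 rose, and 2 of 22 cilium genes fell and 1 rose. That setting tests 7 arrays. Cilium genes that fell were 13 with median centring, which moved the fitted change over the course by a median of -0.14 log2 units over all genes, 5 by exact rank correlation, and 5 without those probe sets, where 17 cilium genes were tested. A turning point was called in 1 gene, Ift74, under quantile normalization, with P0 at day 20 and without E12 or E16, against 0. The cause of these differences was not tested.

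Slopes that changed sign all belonged to 12 genes with no call. They were, with median centring, Cep120 (-0.017), Cep19 (-0.014) and Cep68 (-0.0017), and with the Xist covariate Cep120 (-0.0013). Without suffixed probe sets Bbs4 had 0.033, and with the mean of all probe sets Bbs4 had 0.0096, Cep68 -0.045 and Cep95 0.010. Leaving out 1 array reversed Cep120 without E11 (-0.042) or E16 (-0.0033), with a highest slope of 0.017 without E18, and Cep170 (-0.0038, highest 0.099 without P0) and Cep43 (0.0025, lowest -0.11 without E12) without E11. It reversed Cep19 without E12 (-0.0023) or E18 (-0.0043; highest 0.017 without E11), Bbs4 without E13 (0.021; lowest -0.033 without E11), and Bbs7 (-0.0063; highest 0.044 without E18) and Cep350 (0.010; lowest -0.015 without E11) without P0. Over E13 to P0, Cep120 (-0.050), Cep164 (0.012), Cep170 (-0.011), Ift20 (-0.0019) and Tubgcp2 (0.013) reversed. By rank correlation, rho was 0.4 for Bbs4, -0.1 for Cep120 and 0.167 for Cep350.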
